A study of Mus musculus with 17 samples.

Results

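Small noncoding RNAs were followed in 15 libraries of macrophages from the mouse mammary gland. They were all entries of the 3 macrophage tables whose annotated biotype was snoRNA, snRNA, scaRNA or misc_RNA. The table of the knockout experiments held 407 such RNAs among 19782 genes: 274 snoRNAs, 78 snRNAs, 18 scaRNAs and 37 misc_RNAs. The table of macrophages sorted by CXCR4 held 306 among 17130 genes, and the table of cultured macrophages 252 among 18909. Of the 407 RNAs, 267 were also in the CXCR4 table. The values are CPM (a gene's reads scaled to a common total per library). The 3 tables were normalized separately, so levels are set side by side across tables without a test.

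The study looked at the chemokine CXCL12 and its receptor CXCR4 in macrophages of virgin mice, sorted on F4/80 and CD11b. In the knockout experiments 4 groups had 2 libraries each, numbered repeat 1 and repeat 2. The LysM-Cre control (LysmCre+) and the Cxcr4 knockout (LysmCre+, Cxcr4fl/fl) carry a Cre active in myeloid cells. The K8-Cre control (K8Cre+) and the Cxcl12 knockout (K8Cre+, Cxcl12fl/fl) carry a Cre active in luminal epithelial cells, so that Cxcl12 was deleted outside the sorted macrophages. All other libraries came from wild type mice: 2 of CXCR4+ and 1 of CXCR4- macrophages, and 4 of macrophages cultured in RPMI with fetal serum. The cultured libraries were untreated, or received recombinant CXCL12, the AKT inhibitor GSK690693, or both, with 1 library of each. Ages, doses and times are not given in the sources used here. Nothing in the labels says whether repeats came from separate mice, so p-values measure only the spread between these samples, which may be technical.

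Small noncoding RNAs are not translated and work as parts of RNA-protein particles. Box C/D snoRNAs guide the methylation of ribosomal RNA, and box H/ACA snoRNAs guide its conversion of uridine to pseudouridine. U3 is a box C/D snoRNA that guides no modification; it pairs with the ribosomal precursor and is needed to cut it into the small subunit RNA. The scaRNAs do the same guiding work on spliceosomal RNAs in Cajal bodies. The snRNAs U1 and U2 recognise the 5′ splice site and the branch point of introns. Among the misc_RNAs, 7SK holds the elongation factor P-TEFb inactive, 7SL is the RNA of the signal recognition particle, and the Y RNAs bind the Ro60 protein. Most snoRNAs of the mouse are cut out of introns of host genes, while U3, U8, 7SK, 7SL and the snRNAs have promoters of their own.

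The sequences on which the results turn are shown here to let the classes be told apart. Capitals mark TGATGA (box C) and CTGA (box D) in box C/D snoRNAs, and ACA in box H/ACA snoRNAs. Other classes carry no capitals, although the scaRNA Gm22009 holds both C and D boxes. The search took TGATGA within the first 25 bases, CTGA within the last 15 and ACA starting 6 bases from the end, all on the annotated strand. In U3 and U8, whose boxes lie elsewhere, the first TGATGA at any position is in capitals. Both C and D boxes were found in 93 of the 407 RNAs and the ACA in 96. Of 1507 annotated mouse snoRNAs, 20.3% held both boxes and 17.8% the ACA; of 1383 annotated snRNAs, 0% and 0.868% did. Sequences are transcripts of GENCODE release M21 on GRCm38, from the 5′ end; of Gm22009 (343 bases) and Rn7sk (331 bases) the first 150 are shown.
Rnu3b1: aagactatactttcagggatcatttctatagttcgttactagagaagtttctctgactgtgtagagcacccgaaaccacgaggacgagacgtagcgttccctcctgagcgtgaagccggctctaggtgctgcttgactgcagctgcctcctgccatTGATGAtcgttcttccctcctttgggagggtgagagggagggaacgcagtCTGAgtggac
Rnu3a: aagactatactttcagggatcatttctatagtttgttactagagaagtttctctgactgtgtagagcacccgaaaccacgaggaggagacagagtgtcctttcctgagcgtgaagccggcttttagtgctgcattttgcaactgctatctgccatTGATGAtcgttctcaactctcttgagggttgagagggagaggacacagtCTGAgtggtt
Snord118: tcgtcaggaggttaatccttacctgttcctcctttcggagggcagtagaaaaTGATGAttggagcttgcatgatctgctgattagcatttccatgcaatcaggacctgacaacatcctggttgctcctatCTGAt
Snord17: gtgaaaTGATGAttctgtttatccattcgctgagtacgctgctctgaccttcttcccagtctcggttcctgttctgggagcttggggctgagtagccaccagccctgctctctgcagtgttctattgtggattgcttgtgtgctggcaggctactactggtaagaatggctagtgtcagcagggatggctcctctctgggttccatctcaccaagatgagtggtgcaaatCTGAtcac
Snord50a: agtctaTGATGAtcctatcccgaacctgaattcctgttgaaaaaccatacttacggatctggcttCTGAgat
Snord49a: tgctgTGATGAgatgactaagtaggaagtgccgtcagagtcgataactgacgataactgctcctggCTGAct
Snord15b: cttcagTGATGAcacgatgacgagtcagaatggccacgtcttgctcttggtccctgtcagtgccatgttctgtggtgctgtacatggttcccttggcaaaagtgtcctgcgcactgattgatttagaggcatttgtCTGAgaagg
Snora61: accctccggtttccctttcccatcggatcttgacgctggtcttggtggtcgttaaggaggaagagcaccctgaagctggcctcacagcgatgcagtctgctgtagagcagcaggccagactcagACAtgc
Gm22009: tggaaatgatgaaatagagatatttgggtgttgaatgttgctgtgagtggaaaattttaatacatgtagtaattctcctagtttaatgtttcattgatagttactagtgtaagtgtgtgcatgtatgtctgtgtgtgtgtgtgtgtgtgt
Rnu2-10: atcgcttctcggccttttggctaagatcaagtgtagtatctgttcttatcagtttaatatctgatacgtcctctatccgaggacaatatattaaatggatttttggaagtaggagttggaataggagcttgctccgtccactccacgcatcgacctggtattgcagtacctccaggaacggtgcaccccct
Rn7sk: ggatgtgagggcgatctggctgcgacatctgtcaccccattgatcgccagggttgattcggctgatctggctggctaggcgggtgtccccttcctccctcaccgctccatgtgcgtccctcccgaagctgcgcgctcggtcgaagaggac

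The first pair are U3. Rnu3b1 lies at chr11:87443237-87443452 on the plus strand in an intron of Tex14, with 3 further copies of identical sequence (Rnu3b2, Rnu3b3 and Rnu3b4) in the same gene. Rnu3a lies at chr10:40258467-40258680 on the plus strand outside other genes and differs from Rnu3b1 by 32 edits (85.19% identity). Snord118 is U8, at chr11:69073427-69073561 on the plus strand outside other genes. Snord17 lies at chr2:144265979-144266216 on the minus strand in an intron of Snx5. Snord50a lies at chr9:88521529-88521600 on the minus strand and overlaps an exon of its host Snhg5; Gm24463 has the same 72 bases. Snord49a lies at chr11:62603450-62603521 on the plus strand in an intron of 2410006H16Rik. Snord15b lies at chr7:99479563-99479707 on the minus strand and overlaps an annotated exon of Rps3, a ribosomal protein gene. Snora61, the box H/ACA example, lies at chr4:132310240-132310369 on the plus strand and overlaps an exon of Snhg12. Gm22009 is a scaRNA at chr3:69085105-69085447 on the minus strand in an intron of Kpna4. Rnu2-10 is a U2 copy at chr11:101658238-101658428 on the plus strand, and Rn7sk, the 7SK gene, lies at chr9:78175303-78175633 on the minus strand, both outside other genes.

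Of 12 sets of copies with the same sequence in the knockout table, 11 carried values within 4% of each other, some of them parts of a read. The exception was a scarce U6 pair, Gm25021 and Gm29163. Gm22192 and its twin Gm25632, for example, each held 51.5 read equivalents in repeat 1 of the LysM-Cre control. How reads matching several copies were assigned is not given in the sources used here, and single copies cannot be told apart. Families are therefore described by their sums: U3 (6 entries of the knockout table), U2 (10) and U1 (16).

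Depth was estimated by taking the most frequent low non-zero value as a single read. It was 8.60 to 37.2 M reads in the knockout experiments, 23.2 to 28.8 M reads in the CXCR4 sort and 14.3 to 29.04 M reads in culture. All 4 repeat 2 libraries were deeper (20.1 to 37.2 M reads) than all 4 repeat 1 libraries (8.60 to 16.8 M reads). The targeted gene Cxcr4 had 818 and 318 CPM in the LysM-Cre control and 232 and 140 CPM in the Cxcr4 knockout, so both knockout libraries lay below both controls. In the sort, Cxcr4 had 632 and 875 CPM in the libraries labelled CXCR4-positive and 772 CPM in the library labelled CXCR4-negative; the transcript did not separate what was sorted on surface protein. The 10 macrophage markers summed to 2341 to 13580 CPM in the knockout experiments and 7205 to 13230 CPM in the sort, with Adgre1 (F4/80) at 350 to 702 CPM in the former. In culture, 9 of the 10 were in the table and summed to 6181 to 9710 CPM. Lyz2 alone ranged from 51.7 to 10230 CPM in the knockout experiments and from 4941 to 8034 CPM in culture. The 4 fibroblast markers summed to 214 to 647 CPM in the knockout experiments. In culture 3 endothelial genes summed to 1291 to 1696 CPM and 4 erythroid genes to 144 to 304 CPM. The endothelial Pecam1 (415 to 530 CPM) and Cdh5 (678.5 to 869 CPM) lay above Adgre1 (148.5 to 240 CPM) and Csf1r (173 to 351 CPM) there. A lower level in bulk samples cannot tell fewer cells of a type from less RNA per cell.

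The share of all CPM held by small noncoding RNAs split the knockout experiments by repeat number. It was 4.90% and 19.15% in repeats 1 and 2 of the LysM-Cre control, 4.72% and 17.7% in the Cxcr4 knockout, 6.38% and 14.99% in the K8-Cre control, and 2.81% and 17.5% in the Cxcl12 knockout. The lowest repeat 2 library lay well above the highest repeat 1 library, both being K8-Cre controls, so the repeats did not overlap. The difference averaged 12.6 percentage points (SD 2.79, n = 4 groups). Counting error is far smaller: the 95% Wilson interval of the library with the fewest reads, repeat 1 of the K8-Cre control, was 6.37% to 6.40%. Such intervals cover counting error only.

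Among the RNAs, U3 carried most of that difference. Its 6 entries held 0.712% and 13.0% of the CPM in repeats 1 and 2 of the LysM-Cre control, 0.738% and 11.9% in the Cxcr4 knockout, 1.22% and 7.73% in the K8-Cre control, and 0.370% and 12.4% in the Cxcl12 knockout. The repeat 2 share of U3 was 18.3, 16.1, 6.33 and 33.4 times the repeat 1 share in these groups. U3 made up 13.2% to 19.1% of small noncoding RNA in repeat 1 and 51.6% to 70.5% in repeat 2. Without U3, the other small noncoding RNAs held 4.19% and 6.13%, 3.98% and 5.83%, 5.16% and 7.26%, and 2.44% and 5.18% of the CPM in the 4 groups in that order. Repeat 2 was above repeat 1 within each group. The ranges nearly met, at 5.16% in repeat 1 of the K8-Cre control and 5.18% in repeat 2 of the Cxcl12 knockout.

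**Figure D1:**
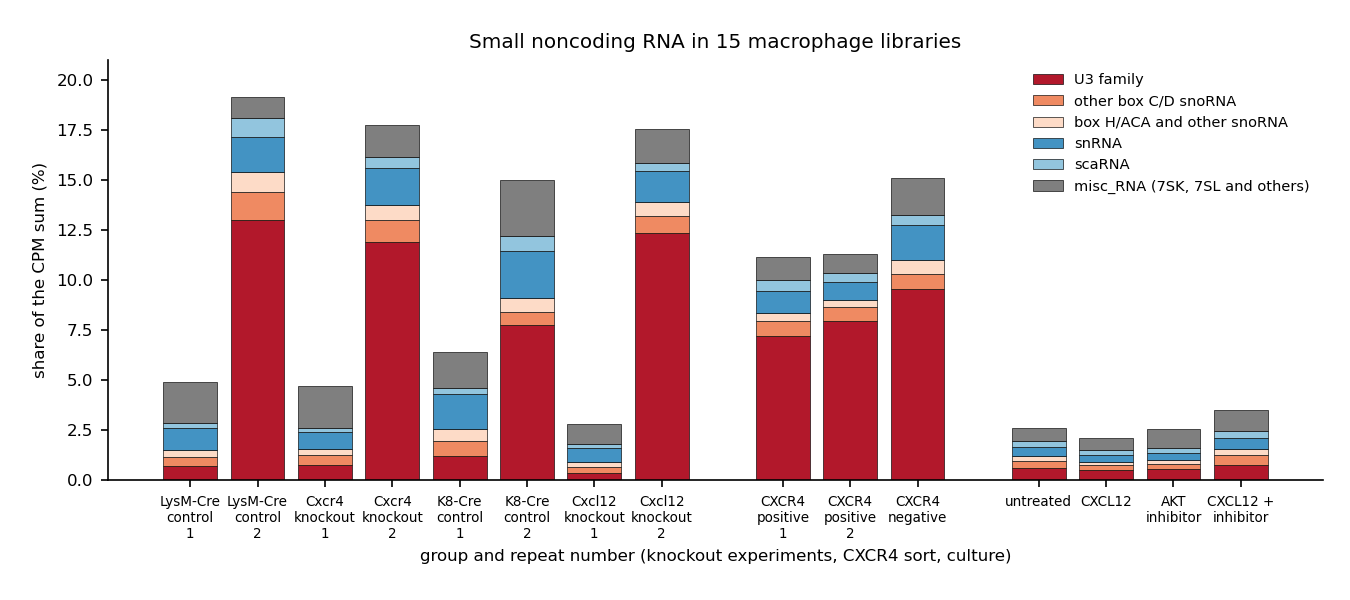
Stacked bars give the share of the CPM sum (%, vertical axis) held by each class of small noncoding RNA in each of the 15 libraries, named by group and repeat number. The 3 tables were normalized separately. The culture table also rests on another set of gene entries, so its bars are shown but not compared with the others. The U3 segment is 0.370% to 1.22% in repeat 1 and 7.73% to 13.0% in repeat 2 of the knockout experiments, 7.22% to 9.54% in the CXCR4 sort and 0.486% to 0.772% in culture.

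The other classes followed in part. Box C/D snoRNAs without U3 held 0.440% and 1.37% in the LysM-Cre control, 0.497% and 1.11% in the Cxcr4 knockout, 0.722% and 0.672% in the K8-Cre control, and 0.301% and 0.847% in the Cxcl12 knockout. They were thus higher in repeat 2 in 3 groups of 4. Box H/ACA snoRNAs held 0.0562% to 0.0975% in repeat 1 and 0.0688% to 0.101% in repeat 2, ranges that overlap. The scaRNAs held 0.198% to 0.266% in repeat 1 and 0.401% to 0.970% in repeat 2, without overlap, most of it from Gm22009 alone. U2 held 0.574% to 1.68% and 1.48% to 2.26%.

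7SK went the other way in one Cre line. It held 1.75% and 0.858% in the LysM-Cre control and 1.82% and 1.35% in the Cxcr4 knockout, lower in repeat 2. In the K8-Cre control it held 1.55% and 2.45%, and in the Cxcl12 knockout 0.917% and 1.42%, higher in repeat 2. The ratio of U3 to 7SK within a library was 0.403 to 0.789 in repeat 1 and 3.16 to 15.2 in repeat 2. A single scaling factor per library does not move this ratio, but quantile normalization can. 7SL held 0.307% and 0.184%, 0.272% and 0.201%, 0.239% and 0.312%, and 0.101% and 0.257% in the 4 groups, with the same order of repeats as 7SK in each.

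Other short RNAs, which are not among the 407, did not share the pattern of U3. The miRNA entries held 0.112% to 0.242% in repeat 1 and 0.0980% to 0.118% in repeat 2, and rRNA entries held 0.0287% to 0.119% and 0.0177% to 0.0443%. Rpph1, the RNA of RNase P, had 424, 405, 344 and 101 CPM in repeat 1 and 129, 158, 252 and 175 CPM in repeat 2, in the order LysM-Cre control, Cxcr4 knockout, K8-Cre control and Cxcl12 knockout. Rmrp, the RNA of RNase MRP, had 241, 116, 489 and 123 CPM in repeat 1 and 80.1, 77.0, 79.2 and 56.1 CPM in repeat 2. Rmrp was thus below its repeat 1 range in every repeat 2 library. Protein-coding genes held 85.9% to 87.2% and 74.6% to 77.4%.

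Repeats were then compared gene by gene with limma on log2(CPM + 1), with the group as a term, over the 17275 genes that reached 1 CPM in 2 or more of the 8 libraries. A gene passed at a Benjamini-Hochberg adjusted p under 0.05, and changes are log2 differences on that scale, which understate low genes. Of the 407 small noncoding RNAs, 317 were tested, with 296 distinct sequences. Higher in repeat 2 were 35, which have 26 distinct sequences, and 1 was lower. Of all genes tested, 0.533% passed, 0.266% higher and 0.266% lower. The median change of all genes was 0.34, and that of the 317 small noncoding RNAs 0.68. Within the K8-Cre control alone the order was reversed, at 0.83 and 0.38. These calls depend on limma's mean-variance trend: without it none of the 17275 genes passed, and Rnu3b1 had an adjusted p of 0.363. Leaving out 1 library gave 25 to 43 calls, except that 9 were made without Cxcl12 knockout repeat 2 and 15 without Cxcl12 knockout repeat 1. In limma with the trend, 88 of the 317 and 10.3% of all genes had an unadjusted p under 0.05.

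U3 led the comparison. Each of the 4 Rnu3b copies had 1651, 1726, 2795 and 824 CPM in repeat 1 and 29267, 27068, 18124 and 28528 CPM in repeat 2, in the order LysM-Cre control, Cxcr4 knockout, K8-Cre control and Cxcl12 knockout. The lowest repeat 2 value was thus several times the highest repeat 1 value. The log2 change of Rnu3b1 was 3.98 (SE 0.18, limma adjusted p = 5.5e-23), with 4.15, 3.97, 2.696 and 5.11 within the groups. That SE, like the others of this comparison, rests mostly on genes of like level (45.8 prior against 3 residual degrees of freedom in limma). The groups differed more among themselves than it implies, so the p-value does not measure the spread of these pairs alone. Rnu3a, the other U3 gene, had 515, 475, 1026 and 400 CPM in repeat 1 and 13120, 10832, 4803 and 9397 CPM in repeat 2. Its change was 3.99 (SE 0.23, limma adjusted p = 3.3e-19). Per kilobase, Rnu3b1 was the highest box C/D snoRNA, with a mean of 63648 CPM per kb over the 8 libraries beside 45767 for Rn7sk and 10329 for Rnu2-10.

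Of the other box C/D snoRNAs with Snord symbols, 9 rose and 1 fell among 69 tested, with a median of 0.99. Snord118 (U8), which acts on the large subunit precursor, had 0, 1.19, 0.116 and 5.61 CPM in repeat 1 and 118, 69.8, 56.0 and 71.6 CPM in repeat 2. Its change of 5.26 (SE 1.02, limma adjusted p = 0.0019) was the highest of all 317. Snord72 also started near 0, with 0.141 to 6.86 CPM in repeat 1 and 39.4 to 98.3 CPM in repeat 2. Its change was 4.68 (SE 1.00, limma adjusted p = 0.0068). Both thus moved between values without overlap.

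Snord50a, a guide of rRNA methylation, had 64.5, 54.3, 251 and 45.8 CPM in repeat 1 and 914, 483, 489 and 525 CPM in repeat 2. It rose by 2.85 (SE 0.36, limma adjusted p = 4.5e-07), and its twin Gm24463 has the same values. Snord50b, from the same host, rose by 2.53 and Snord49a by 3.06 (limma adjusted p = 2.3e-05 and 2.1e-05). Gm26135, the twin of Snord50b with the same values, did not pass without Cxcl12 knockout repeat 2 (limma adjusted p = 0.12). Snord111, Snord2, Snord12 and Snord17 rose by 3.36, 3.20, 1.67 and 1.08. The K8-Cre control differed from the other groups here: Snord17 had 2542 CPM in repeat 1 and 2068 CPM in repeat 2 there, against 1587 and 5891 CPM in the LysM-Cre control. The median change of the box C/D snoRNAs within that group was 0.20, beside 1.15 to 1.55 in the other 3. For all genes the median was 0.83 in that group, thus above the box C/D snoRNAs, and -0.13 to 0.28 in the other 3. This difference between groups was not tested.

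Snord15b was the 1 small noncoding RNA that fell. It had 300, 171, 448 and 286 CPM in repeat 1 and 101, 93.1, 72.8 and 134 CPM in repeat 2, so the repeats did not overlap. It fell by 1.53 on the log2 scale (SE 0.37, limma adjusted p = 0.027), but did not pass with a pseudocount of 0.1 CPM or without limma's trend. Its host Rps3 changed by -1.58 and passed as well, and since both overlap on the annotation their reads cannot be told apart here. Snord15b did not pass without any 1 of the K8-Cre control and Cxcl12 knockout libraries (limma adjusted p = 0.16 to 0.26), with quantile normalization or with CPM over the other genes.

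**Figure D2:**
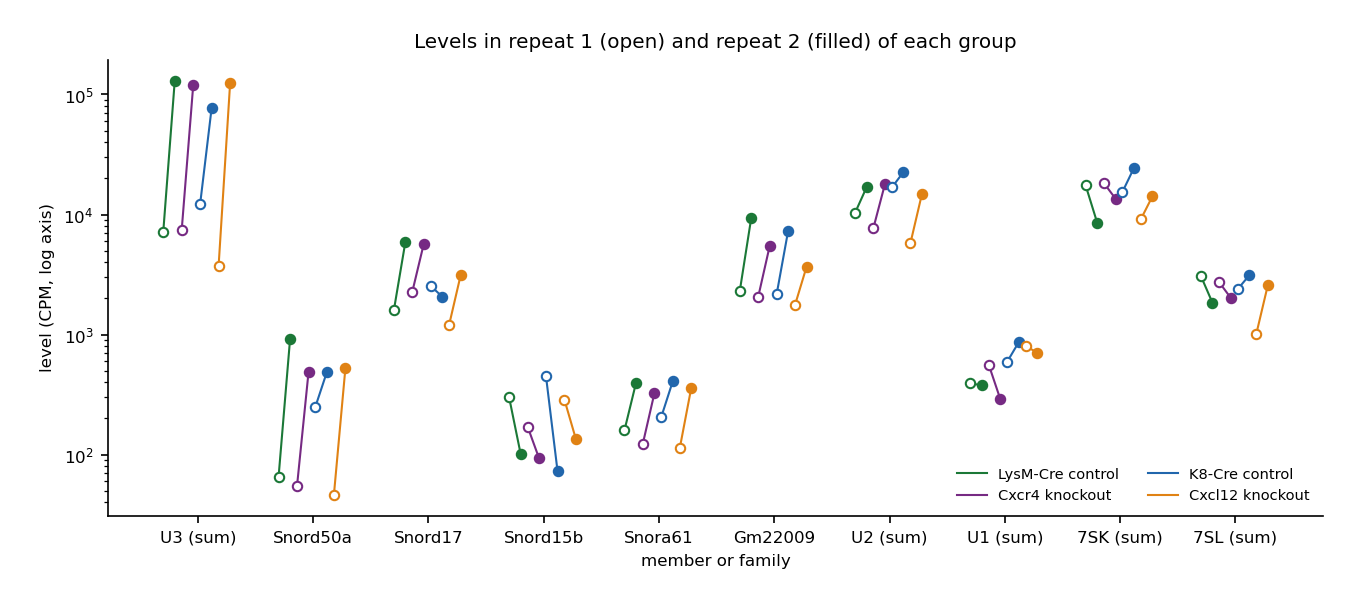
Points give the CPM (log axis) of 5 RNAs and 5 family sums in the 8 knockout-experiment libraries, open for repeat 1 and filled for repeat 2, with a line joining the repeats of each group. The U3 lines all climb, from 0.370% to 1.22% of the CPM up to 7.73% to 13.0%, while those of 7SK, 7SL and U1 run both ways and Snord15b falls in every group.

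Most snoRNAs with Gm symbols have no guide name here, so they are described by motif. Among 132 other snoRNAs tested, 12 rose and none fell, with a median of 0.76. The 42 with C and D boxes had a median of 1.81 and 9 rose, the 49 with an ACA had a median of 0.23 and 1 rose, and of 40 with neither 2 rose (median 0.56). Gm25117, in an intron of Nap1l1, was the highest of this class per kilobase and holds an ACA. It had 427, 450, 888 and 434 CPM in repeat 1 and 2086, 1776, 1567 and 1564 CPM in repeat 2. It rose by 1.73 (SE 0.23, limma adjusted p = 9.4e-07). Gm23130, which overlaps an exon of Rps12, had 57.4, 32.0, 240 and 10.5 CPM against 490, 206, 205 and 160 CPM and rose by 2.33, although its K8-Cre control libraries ran the other way. Gm23262 rose by 1.25. Without either Cxcl12 knockout library, neither Gm23130 nor Gm23262 passed (limma adjusted p = 0.36 to 0.47).

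The box H/ACA snoRNAs with Snora symbols had 1 call in 30, a median of 0.28, and 16 values above 0 (53.3%, below the 64.2% of all genes). Snora61 was that call, with 159, 124, 206 and 113 CPM in repeat 1 and 394, 324, 410 and 361 CPM in repeat 2, a change of 1.34 (SE 0.32, limma adjusted p = 0.028). It did not pass without any 1 of the Cxcr4 knockout and Cxcl12 knockout libraries (limma adjusted p = 0.11 to 0.44). Snora68 had 16.2 to 58.8 CPM over the 8 libraries and a change of -0.91, which did not pass (limma adjusted p = 0.62). Snora30, Snora7a and Snora73a had changes of 0.85, 2.39 and 0.10, and none passed. The last of these ranged from 52.8 to 217 CPM, higher in repeat 2 in the LysM-Cre groups and lower in the K8-Cre groups.

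**Figure D3:**
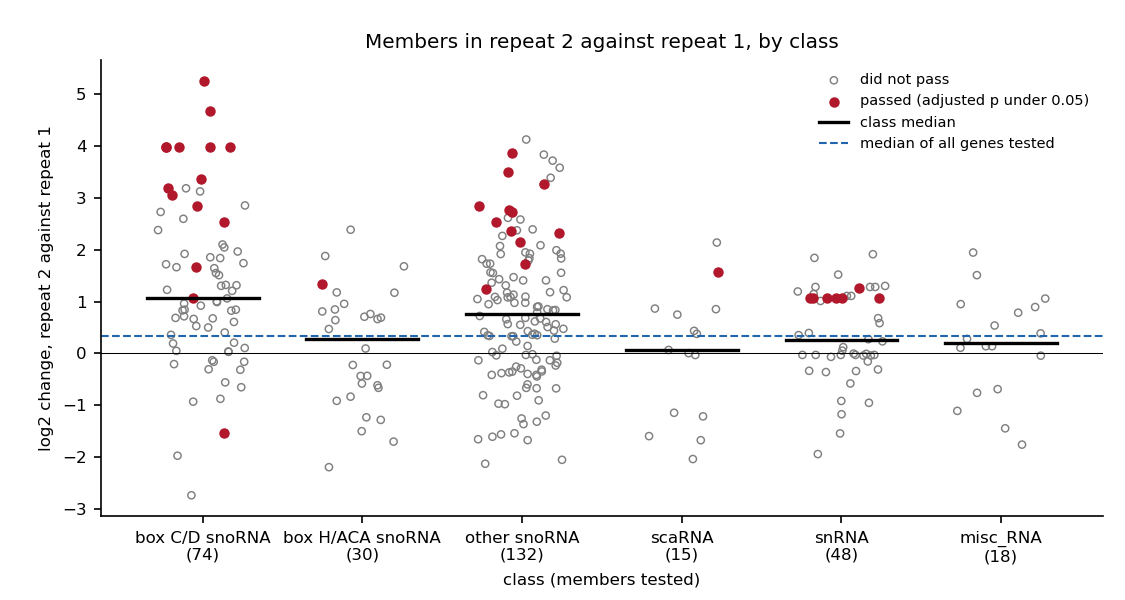
Each point is 1 of the 317 tested RNAs, with its log2 change of repeat 2 against repeat 1 on the vertical axis and its class below; filled points passed, black bars are class medians and the dashed line is the median of all 17275 genes (0.34). Box C/D snoRNAs lie highest (median 1.07) and the scaRNAs and misc_RNAs spread around 0.07 and 0.21.

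Length and motif run together among snoRNAs. The 113 tested under 100 nucleotides had a median of 1.31, 99 of them were above 0, and 16 rose. The 123 of 100 nucleotides or more, U3 included, had a median of 0.35, with 70 above 0, 11 called higher and 1 lower. Above 0 were thus 87.6% of the short and 56.9% of the long ones, beside 64.2% of all genes tested, of which 0.266% were called higher. Of the 113 short ones, 74 held C and D boxes, 38 neither motif and 0 the ACA, and 1 had no sequence. The 74 had a median of 1.56 with 65 above 0, and the 38 a median of 0.97 with 33 above 0. The search needs the exact TGATGA, and 31 of the 76 box C/D snoRNAs held neither motif by it. The 38 therefore include box C/D snoRNAs, such as Snord2 and Snord72, and do not part length from the boxes. Short snoRNAs with an ACA, which would part length from that box, were lacking. By position, 111 snoRNAs in introns had a median of 0.67, and 19 outside other genes 0.38.

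**Figure D4:**
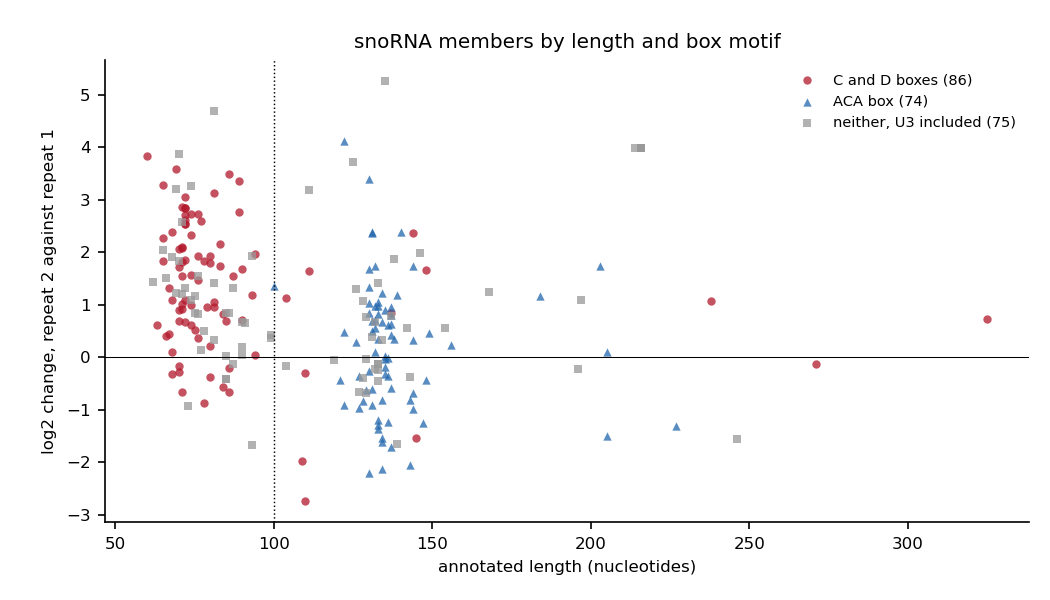
Points are the 235 tested snoRNAs with an annotated sequence, by length in nucleotides (horizontal axis) and log2 change of repeat 2 against repeat 1 (vertical axis), coloured by the box motif found. Those left of the dotted line at 100 nucleotides lie mostly above 0, and those with an ACA lie on both sides of 0.

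Host genes were nearer to 0 than their snoRNAs in the median. For 65 box C/D snoRNAs other than U3, in 47 host genes, the median change was 1.01, that of the hosts 0.0062, and 52 of the 65 were above their host. For 25 box H/ACA snoRNAs the medians were 0.64 and, for their hosts, -0.38, with 13 above. For 119 other snoRNAs they were 0.90 and 0.088, with 83 above. Snord17 changed by 1.08 and Snx5 by 0.07, and Snord12 by 1.67 with its host Zfas1 at -1.16. In the knockout experiments 33 of 76 box C/D, 17 of 31 box H/ACA and 60 of 167 other snoRNAs overlap an annotated exon of the host. Snord12 is among them, and reads of such a snoRNA and its host cannot be told apart here.

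Among the scaRNAs, Gm22009 was the 1 call in 15. By the search used for the snoRNAs, Gm22009 holds both C and D boxes, as do 5 of the 18 scaRNAs, itself included. It had 2288, 2053, 2159 and 1769 CPM in repeat 1, a narrow range, and 9361, 5470, 7304 and 3675 CPM in repeat 2. It rose by 1.57 (SE 0.17, limma adjusted p = 2.1e-09). Gm25492, Scarna17, Gm23751 and Scarna13 changed by 0.85, 0.75, -1.67 and -0.03, and none passed. The median of the 15 was 0.07.

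The snRNAs split by family. Of 10 U2 entries 7 rose, all 10 were above 0 (beside 64.2% of all genes) and their median was 1.07. These calls are not separate results, since they include 4 identical copies (Rnu2-10 and its twins) and the identical pair Gm23444 and Gm23472. The share of the U2 sum was higher in repeat 2 within each group, but the ranges overlapped, at 0.574% to 1.68% and 1.48% to 2.26%. Rnu2-10 had 1593, 561, 2513 and 944 CPM in repeat 1 and 2631, 2664, 2806 and 2073 CPM in repeat 2, a change of 1.07 (SE 0.21, limma adjusted p = 0.003). Gm23971, Gm23849 and Gm24950 share its sequence and nearly its values. These 4 did not pass without any 1 of the Cxcr4 knockout and Cxcl12 knockout libraries (limma adjusted p = 0.17 to 0.50). U1 differed: none of 16 entries passed, the median was -0.03 and the sum of the family was 290 to 864 CPM over the 8 libraries. Rnu12, the minor spliceosome's U12, had 0 to 37.1 CPM in repeat 1 and 5.86 to 28.8 CPM in repeat 2, a change of 1.84 that did not pass (limma adjusted p = 0.53). Rnu11 was at 0 in 4 of the 8 libraries and above 1 CPM in 1, so it was not tested.

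None of the 18 misc_RNAs tested passed in limma, and 2 had an unadjusted p under 0.05. Rn7sk had 17538, 18218, 15473 and 9171 CPM in repeat 1 and 8571, 13532, 24480 and 14208 CPM in repeat 2, a change of -0.04 (SE 0.15, limma adjusted p = 0.94) whose sign depends on the scaling, since it was 0.16 with CPM taken over the other genes and -0.99 with quantile normalization, where it passed. Rn7s1, the 7SL copy whose twin Rn7s2 has nearly the same values, had 1536, 1359, 1197 and 504 CPM against 922, 1007, 1560 and 1284 CPM. Its change was 0.14. The Y RNAs were scarce: Rny1 had 0.707 to 15.5 CPM in repeat 1 and 12.8 to 34.3 CPM in repeat 2, and Rny3 1.13 to 7.56 and 3.87 to 7.63 CPM. Their changes of 1.95 and 0.54, the second -0.45 with quantile normalization, did not pass (limma adjusted p = 0.51 and 0.90). Gm27505 changed by 0.28, from -2.85 in the LysM-Cre control to 4.25 in the K8-Cre control.

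All 4 repeat 2 libraries lay above all 4 repeat 1 libraries for 77 of the 317, beside 5.65% of all genes, and below for 8, beside 2.87%. Repeat 2 was above repeat 1 within each of the 4 groups for 100 of the 317, beside 11.8% of all genes, and below it for 14, beside 5.8%. Depth moved with the repeat number, and so did neutrophil markers, whose 4 genes summed to 69.1 to 221 CPM in repeat 1 and 8.29 to 44.1 CPM in repeat 2. Of those, Ly6g was at 0 in 4 of the 8 libraries and S100a9 in 1. The 3 endothelial markers summed to 0.703 to 96.4 CPM in repeat 1 and 61.3 to 152 CPM in repeat 2. Macrophage markers overlapped, with sums of 4100 to 13580 and 2341 to 9962 CPM. The part of depth and of other cells in the changes was not tested, and what a repeat number stands for is not given in the sources used here.

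Genes for the proteins that bind these RNAs gave few calls. Of 12 box C/D particle genes tested, such as Fbl and Nop56, none passed in limma with or without the trend (median 0.71), nor did any of 6 box H/ACA particle genes (1.00), 14 of Cajal bodies and the SMN complex (0.33), 24 of the spliceosomal particles (0.29), 7 of the 7SK particle (0.35) or 20 of RNA polymerase III (0.89). Of 8 signal recognition particle genes, Srp54c rose by 3.46. Of 36 listed snoRNA host transcripts, Rps3 fell and none rose, with a median of -0.30.

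Loss of Cxcr4 in myeloid cells was compared with the LysM-Cre control to ask whether the receptor affects these RNAs. None of the 317 passed in limma, with or without the trend; 5 had an unadjusted p under 0.05, beside 3.33% of all genes. Of all 17275 genes 0.00579% passed, which is 1 gene and no small noncoding RNA. The median change was -0.07, beside 0.14 for all genes. Rnu3b1 had 1651 and 29267 CPM in the control and 1726 and 27068 CPM in the knockout, so the libraries of equal repeat number were close and the change was -0.02 (95% interval -1.34 to 1.29). Within these groups its repeats differed by 4.15 and 3.97 on the log2 scale, a spread that the interval does not reflect. The interval rests mostly on genes of like level (97.3 prior against 4 residual degrees of freedom in limma). The intervals given for the Cxcl12 knockout come from the same fit. The smallest p-values belonged to 3 RNAs that were near 0 in 1 group. Gm24996 had 0 and 0 CPM in the control and 25.8 and 1.04 CPM in the knockout, and Gm24347 0 and 0 against 14.3 and 8.19 CPM. Gm26493 had 23.5 and 1.64 CPM against 0 and 0.107 CPM. The limma adjusted p of all 3 was 1.

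Any single library of these groups decides the U3 value in this comparison. Without LysM-Cre control repeat 1, Rnu3b1 changed by -2.10 (limma adjusted p = 0.0031) and 7 RNAs were called lower, 5 of them U3. Without LysM-Cre control repeat 2 it changed by 2.05 (limma adjusted p = 0.0027), and the 5 U3 entries were called higher. Without Cxcr4 knockout repeat 1 the change was 1.96 and without its repeat 2 it was -2.01, and neither passed (limma adjusted p = 1 and 0.73). Each of these fits sets a group of 1 repeat against a group of both.

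Loss of Cxcl12 in luminal cells gave no call among the 317 in limma, beside 0% of all genes. At an unadjusted p under 0.05 there were 16, beside 2.84% of all genes, and 8 of the 16 were U2 entries, some of them copies of the same sequence. The median change was -0.18, against 0.36 for all genes. Gm25939, a U2 entry, had 2645 and 2756 CPM in the K8-Cre control and 620 and 1336 CPM in the knockout, so both knockout libraries were lower. Its change was -1.57 (95% interval -2.35 to -0.79, unadjusted p = 0.00012, limma adjusted p = 1). With the repeat number as a block it was the 1 RNA that passed (limma adjusted p = 0.0284). Gm24497, also U2, had 1133 and 2716 CPM against 290 and 1392 CPM, a change of -1.46, and Gm23130 changed by -2.37. Rn7sk had 15473 and 24480 CPM in the control and 9171 and 14208 CPM in the knockout, a change of -0.77 with 95% interval -1.44 to -0.10 that did not pass after adjustment. Rnu3b1 changed by -1.76 in repeat 1 and 0.65 in repeat 2. Without Cxcl12 knockout repeat 2, 7 RNAs were called lower, of which 5 were U3 and the others Gm24497 and Gm23130.

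The difference between both knockout effects was tested in the same fit. None of the 317 passed in limma, beside 0.00579% of all genes, and 7 had an unadjusted p under 0.05, beside 2.48%. The smallest p-values were those of the U2 entries Gm25939, Gm24497 and Gm23444, with differences of 1.82, 1.78 and 1.58 (limma adjusted p = 0.9999 for each). Without LysM-Cre control repeat 2, or without Cxcl12 knockout repeat 2, the 4 Rnu3b copies passed, with differences of 2.60 and 3.09.

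In the CXCR4 sort, small noncoding RNAs held 11.1% and 11.3% of the CPM in the CXCR4-positive libraries and 15.1% in the library labelled CXCR4-negative (95% Wilson interval 15.08% to 15.11%). U3 held 7.22%, 7.94% and 9.54%, which is 63.2% to 70.2% of the small noncoding RNA. 7SK held 1.00% and 0.828% in the positive libraries and 1.5997% in the negative one. U2 held 1.08% and 0.893% against 1.71%. The negative library was thus highest in each of these families.

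Gene by gene, limma called none of the 306 in the sort, beside 0% of all 17130 genes; 59 had an unadjusted p under 0.05, beside 15.7% of all genes. The negative group has 1 library, assumed to vary like the positive pair. The median change of positive against negative was -0.83, and that of all genes -0.16. Both positive libraries lay below the negative one for 225 of the 306, beside 43.9% of all genes, and above it for 20, beside 30.5%. Of 69 box C/D snoRNAs, 62 were lower in both positive libraries. For Rn7sk the positive pair had 10045 and 8276 CPM, and the negative library 15997 CPM. Snord17 ran the other way, with 4363 and 3934 CPM against 2341 CPM, a change of 0.82 (limma adjusted p = 0.35). Gm22009 had 5689 and 4234 CPM against 4783 CPM.

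The smallest p-values in the sort were those of Gm25789, Gm25878 and Snord49a. Gm25789, from an exon of Gas5, had 126 and 127 CPM in the positive pair against 303 CPM, a change of -1.25 (SE 0.16). Gm25878 had 129 and 124 CPM against 303 CPM, a change of -1.26 (SE 0.16). Snord49a had 104 and 118 CPM against 289 CPM, a change of -1.37 (SE 0.19). The limma adjusted p of each was 0.26. With genes of at least 1 CPM in 2 libraries, a filter chosen after seeing the data, 11 of 233 were called lower and none higher, beside 8.46% of 14411 genes: these 3, Snord50a, Snord50b, Gm24463, Gm26135, Gm23262, Gm27505, Rn7s1 and Rn7s2. That share is below the background. The macrophage markers summed to 7205 CPM in the negative library, against 10900 and 13230 CPM. Lyz2 alone held 5511 to 7367 CPM in the 3 libraries, while C1qa ran from 9.74 to 405 CPM and Mertk from 6.38 to 121 CPM. Of the 10 markers, 9 were above 0 in positive against negative, with a median change of 1.55, and none passed in limma. The part of the macrophage markers in the values of the sort was not tested.

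The table of cultured macrophages rests on another set of gene entries: 162 of its 252 small noncoding RNAs matched the annotation of the other tables by ID, and 7SK had 18 entries and U3 10, against 2 and 6 in the knockout table. Its shares are therefore shown beside those of the other tables in the stacked bars only, and its levels are not compared with them. Small noncoding RNAs held 2.61% of the CPM in untreated cells, 2.11% with CXCL12, 2.53% with the AKT inhibitor and 3.48% with both. The 95% Wilson intervals, which cover counting error only, were 2.60% to 2.62%, 2.11% to 2.12%, 2.52% to 2.54% and 3.47% to 3.49%. U3 held 0.592%, 0.486%, 0.556% and 0.772% in the same order, or 22.0% to 23.0% of the small noncoding RNA in each. With 1 library a group there is no replicate check and no p-value, and a comparison here is of libraries, not of conditions.

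Family sums moved by less than 2-fold for the abundant families. U3 summed to 5919, 4859, 5555 and 7723 CPM in untreated cells, with CXCL12, with the inhibitor and with both. U2 summed to 4653, 3401, 3370 and 5474 CPM. 7SK parted from these, with 4898 and 4051 CPM without the inhibitor and 7756 and 7466 CPM with it. 7SL summed to 1843, 2191, 1626 and 2610 CPM.

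RNAs of at least 10 CPM in the higher library were counted as past 2-fold. CXCL12 against untreated gave 1 higher and 3 lower of 78, beside 26.2% of all genes past 2-fold (11.9% higher and 14.3% lower), and the median log2 ratio was -0.32 (all genes -0.04). The inhibitor against untreated gave 3 higher and 8 lower of 81, beside 36.2% (19.9% higher and 16.4% lower), with a median of -0.40 (all genes 0.06). Both agents against untreated gave 8 higher and 6 lower of 84, beside 48.1% (22.9% higher and 25.3% lower), with a median of 0.30 (all genes 0.03). These 3 comparisons share the untreated library. Both against the inhibitor alone gave 28 higher and 9 lower of 87, beside 48.9% of all genes (21.4% higher and 27.5% lower), with a median of 0.68 (all genes -0.03). Above 0 were 72 of the 87, beside 5107 of all 10440 genes. Of the 72, 10 were U3 entries and 9 were U2 entries, several with nearly the same values, so these are not separate results. Entries of both families are in the counts of the other comparisons too.

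**Figure D5:**
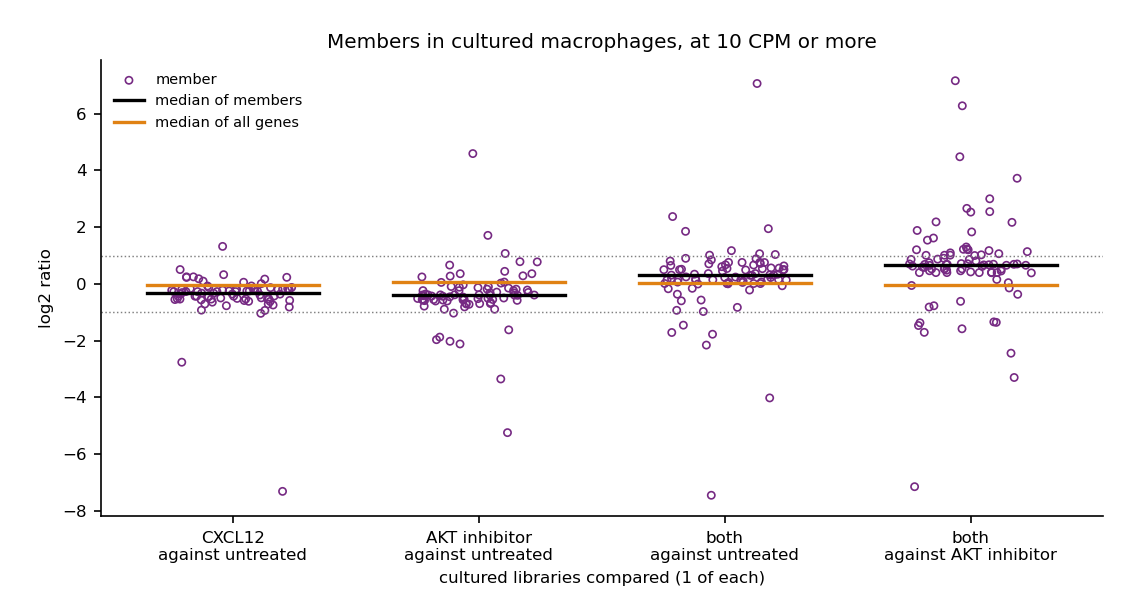
Each point is a small noncoding RNA of at least 10 CPM in the higher of 2 cultured libraries, with its log2 ratio on the vertical axis and the comparison below; dotted lines mark 2-fold. The medians of these RNAs (black) are -0.32, -0.40, 0.30 and 0.68 from left to right, and those of all genes (orange) lie between -0.04 and 0.06.

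The RNAs farthest past 2-fold were scarce ones. With CXCL12, Gm24029 was below 1 read beside 15.8 CPM untreated, at least 153-fold lower taking 3 reads as the floor, and the scaRNA Gm25395 was 6.99-fold lower. Snora24 had 10.7 against 4.21 CPM, 2.54-fold higher. With the inhibitor, Snord23 had 11.5 CPM against 0.378 CPM untreated (30.3-fold higher), and Snora9 0.516 against 23.2 CPM (45.0-fold lower). Snora61, which rose in repeat 2 above, had 8.88 against 36.4 CPM, 4.10-fold lower.

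With both agents, Gm22362 had 13.2 CPM against 0 untreated, at least 93.2-fold higher. Snord15a had 0 against 17.3 CPM, at least 92.5-fold lower, and Gm23547 2.92 against 48.8 CPM, 16.7-fold lower. Scarna10 had 145 against 40.1 CPM, 3.62-fold higher, and Scarna2 7.05 against 31.8 CPM, 4.51-fold lower. Against the inhibitor alone, Snora9 had 47.8 against 0.516 CPM, 92.5-fold higher, and Snora24 0 against 14.0 CPM, at least 74.9-fold lower. Snora9 thus ran in opposite directions in the inhibitor library and in the one with both agents, when set against untreated cells at 23.2 CPM. A short entry annotated as 7SK, distinct from Rn7sk, had 14.2 CPM with both, 3.59 CPM untreated and 0 with the inhibitor.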

How the data were processed

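RNA was total RNA extracted with RNeasy columns, with ribosomal RNA removed by QIAseq FastSelect and libraries made on an Apollo 324, per the labels' protocols. STAR 2.7.8a and Partek are named in the submitters' processing notes, which also give the build hg38, although the deposited coordinates are those of mouse GRCm38; counting, strand and the treatment of reads with several matches are not given in the sources used here. The deposited values are log2(CPM + 0.0001), computed by the authors: back-transformed, each library has the same CPM total. Depth was read from the most frequent low non-zero value, taken as a single read. Of values up to 50 reads, 74.4% to 89.9% came out whole (within 0.05 reads), so no counts were recovered.

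Values were back-transformed with Python 3.11.15 (pandas 2.3.3, numpy 2.4.6) and the tests used limma (version 3.58.1, under R 4.3.3) with a mean-variance trend, on log2 of CPM plus 1. The knockout fit took genes of at least 1 CPM in 2 libraries and the CXCR4 fit in 1 library; p-values are two-sided and Benjamini-Hochberg adjusted over all genes. For culture ratios 0.0993 CPM, worth 2 reads in a library of mean depth, was added to each value. Entries with 2 biotypes (4 in the knockout table, 2 in the CXCR4 table) were left out. Families took unnamed copies at least 85% identical to a named one. Classes follow the symbols: Snord and Rnu3 (box C/D), Snora (box H/ACA). Coordinates and sequences are from GENCODE M21, with 405 of 407 RNAs matched. The limma script was tested on simulated data.

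Genes named in the text are, per class, the 5 highest by mean CPM per kb; per tested comparison, the 5 smallest p in each direction among those that passed, or the 3 smallest where none did; per culture comparison, up to 5 past 2-fold in each direction; and Rn7sk, Rn7s1, Rn7s2, Rny1, Rny3, Rnu11 and Rnu12. Others, such as Snord118, Snord50a, Snord17 and the hosts, were chosen after their values were seen. The members, lists and alternatives were chosen with earlier results of these data known. Alternatives changed the pseudocount, filter, scaling, trend, block, denominator and libraries.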

Additional observations from a re-analysis of the deposited data

How the results depend on the processing

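The mean difference in share between repeats was 12.6 percentage points, and 2.15 without U3, an alternative chosen after seeing the data. Between repeats 36 RNAs were called, against 24 with a pseudocount of 0.1 CPM, 37 with 5 CPM, 40 without a filter, 37 with CPM over the other genes, 39 with quantile normalization and 0 without limma's trend. Leaving out 1 library gave 9 to 43, with 9 without Cxcl12 knockout repeat 2 and 15 without its repeat 1. The median of all genes between repeats was 0.34, 0.53 with CPM over other genes and 0.03 with quantile normalization. Leaving out 1 library gave 0 to 7 calls for each knockout and 0 to 4 for their difference. In the CXCR4 sort the stricter filter gave 11, and leaving out 1 positive library moved the median from -0.83 to between -0.85 and -0.78. At 1 CPM in place of 10, the culture counts were 61, 83, 79 and 98 in place of 4, 11, 14 and 37, in the order of the report.

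With the repeat number as a replicate block, the Cxcl12 knockout gave 1 call and the other knockout comparisons 0. Deviations of libraries with the same number correlated at 0.057 to 0.139 over all genes, not all above 0.1, and at 0.15 to 0.57 over the 317 small noncoding RNAs, all above it. The labels do not say what the number marks, so whether it pairs the libraries is not settled.

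Single RNAs changed sign as follows, between repeats unless stated, with the cause not tested. With CPM over the other genes, Rn7sk was 0.16 and Scarna13 0.17. With quantile normalization, Rny3 was -0.45 and Scarna13 0.053. With a pseudocount of 5 CPM, Gm27505 was -0.081. Leaving out 1 library gave ranges of -0.0016 to 0.39 for Gm25939, -1.04 to 1.32 for Gm27505, -0.26 to 0.43 for Rn7s1 and Rn7s2, -0.28 to 0.29 for Rn7sk, -0.44 to 0.20 for Scarna13 and -0.33 to 0.53 for Snora73a. For the Cxcr4 knockout the ranges were -0.16 to 0.87 for Rn7sk and -2.10 to 2.05 for Rnu3b1, and for the Cxcl12 knockout -3.11 to 2.00 for Rnu3b1.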
